A study of Danio rerio with 3 samples.

Results

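The neural crest cells of the 16 hpf (hours post fertilisation) zebrafish hindbrain library were taken as the cells with 3 or more UMIs (unique molecular identifiers, counted once per RNA molecule caught) of *sox10*, *foxd3* and *crestin* summed. This rule found 393 of 2929 cells, or 13.4% (exact binomial 95% interval 12.2 to 14.7). They were compared with 1570 cells of the same library that had 5 or more UMIs of *sox3*, a marker of neural progenitors, and 0 UMIs of the 3 crest genes, called *sox3* cells here. The library is 1 of 3 of a single cell atlas of the hindbrain at 16, 24 and 44 hpf, which together hold 9026 cells. All came from wild-type (wt) LondonAB embryos, grown at 25 °C for 16 hpf, 28.5 °C for 24 hpf and 25 °C for 44 hpf, and from dissections that took in tissue next to the hindbrain. About 40 tissues were pooled into 1 library per stage, so no spread between embryos can be had. Every interval given here covers counting error only, no test between cells or stages was possible, and cells are not replicates.

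Neural crest cells arise at the border of the neural plate, lose their epithelial contacts and move away from the neural tube along set paths. In the head they build much of the skeleton and connective tissue of the pharyngeal arches, and they also give pigment cells, glia and sensory neurons. Transcription factors such as Tfap2a, Foxd3, Sox10 and the Snail and Twist proteins specify the crest and keep it migratory, and the crest that leaves each hindbrain segment carries part of that segment's Hox code.

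The genes of the rule are described only, since they chose the cells. *foxd3*, a forkhead repressor of early crest, had a UMI in 93.9% of the cells, with a median of 7 and a highest value of 36 UMIs per cell. *sox10*, an HMG-box factor kept on in pigment and glial lineages, had a UMI in 94.7%, with a median of 5 and a highest value of 35. *crestin*, a crest-restricted transcript of zebrafish, was seen in 108 cells, or 27.5%, with at most 13 UMIs. Both *foxd3* and *sox10* were present in 348 cells, or 88.5%, and all 3 genes in 100 cells. At the edge of the rule, the 13 cells with exactly 3 UMIs had 321 CPM (UMIs of the gene scaled to the total of the group) of the endothelin receptor gene *ednrab* and 873 CPM of *sox3*, while the 29 cells with 2 UMIs, just outside, had 122 CPM of *ednrab* and 1092 CPM of *sox3*. The 15 cells with 4 UMIs had 545 CPM of *ednrab* and 81.8 CPM of *sox3*, and the 365 cells with 5 or more had 578 and 191 CPM. Of the 79 *sox3* UMIs in the 13 cells with exactly 3 rule UMIs, 63 lay in 3 cells, and the other 10 cells had at most 4 each.

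The label was checked against crest markers outside the rule. *tfap2a*, an AP-2 factor needed for crest formation, had a UMI in 84.7% of the neural crest cells and 5.29% of the *sox3* cells. *sox9b* was seen in 48.1% and 16.3%, *twist1a* in 30.0% and 3.57%, and *snai2* in 13.7% and 3.25%. None of these but *sox9b*, at 8.41% of epidermis-like and 8.27% of mesoderm-like marker cells (marked by keratin genes and by *foxc1a*, *foxc1b* and *tbx1*), was scarce in both other tissues. *tfap2a* was also seen in 58.9% of epidermis-like marker cells, *twist1a* in 76.0% of mesoderm-like marker cells, and *snai2* in 58.9% and 30.3%, above its share in neural crest cells. Of the 393 cells, 15 went against the label. These had 12 or more UMIs of a list of 15 otic and placode genes, where no other neural crest cell had more than 7, and none had a UMI of *foxd3* or *crestin*. They had 10.3 CPM of *ednrab*, against 596 CPM in the other 378 cells, and 5.17 CPM of *dlx2a*, against 344 CPM. *sox10* stood at a median of 8 UMIs in them, and the otolith matrix gene *stm* (1266 CPM, against 4.94), the claudin gene *cldna* (5014 CPM, against 19.1) and the paired-box gene *pax2a* (470 CPM, against 6.51) were high. They are called otic-marker cells below, and the main counts and the genes that rest on them are given with and without them. In all, 45 cells had 5 or more *sox3* UMIs, 3 of them otic-marker cells, 1 cell held all 80 UMIs of the muscle gene *myog* and 1 cell held 37 of the 39 UMIs of the myeloid gene *spi1b*. No doublet caller was run, and whether these cells are doublets was not tested.

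**Figure D1:**
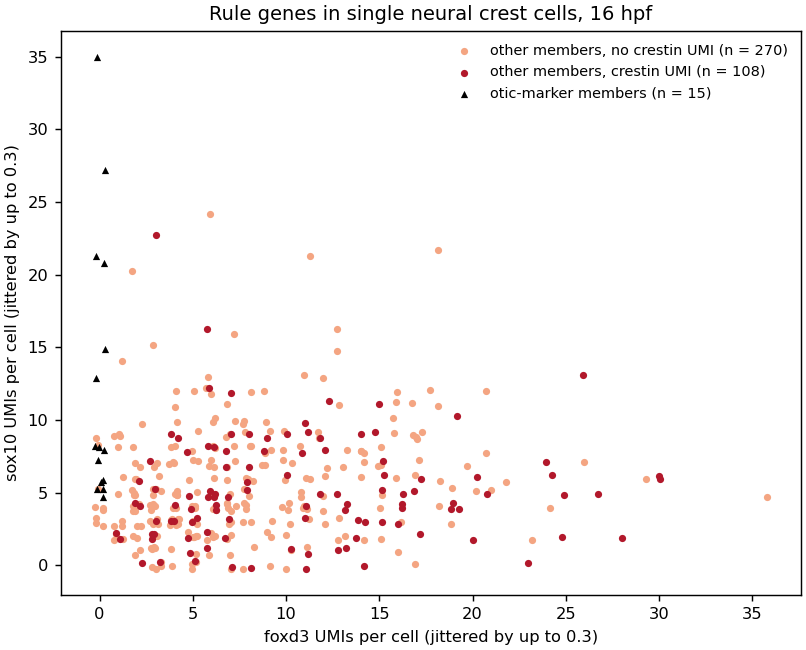
UMIs of *foxd3* (x axis) and *sox10* (y axis) in each of the 393 neural crest cells of 16 hpf, with points shifted at random by up to 0.3 UMIs so that cells do not hide each other. Dark circles are the 108 cells with a *crestin* UMI, pale circles the other 270 and black triangles the 15 otic-marker cells, which all lie at 0 UMIs of *foxd3*.

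The neural crest cells were read at least as deeply as the cells they were compared with. Their 4645207 UMIs gave a median of 11529 UMIs and 2579 genes per cell, and the 16083225 UMIs of the *sox3* cells a median of 10160 UMIs and 2321.5 genes. A count of 0 allowed up to 0.646 CPM over the neural crest cells and 0.187 CPM over the *sox3* cells (3 UMIs over the group). The 16 hpf library shared 8 cell barcodes with the 24 hpf library and 18 with the 44 hpf library, and 1 and 3 of these belonged to neural crest cells of 16 hpf.

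Over all genes, the UMIs of each group were summed and expressed as CPM, and a gene was called higher or lower where the ratio of neural crest cells over *sox3* cells was at least 2 or at most 0.5. Of 6338 genes with at least 10 CPM in either group, 404 (6.37%) were higher and 456 (7.19%) were lower, with the 3 rule genes and *sox3* left out. Without the otic-marker cells 390 of 6318 genes (6.17%) were higher and 484 (7.66%) lower. Genes known for arch crest, crest specification and crest migration led the higher side, and *sox3*-cell genes such as *sox19a*, *pax6a* and *irx1b* led the lower side. As a gene could enter through the group in which it was high, counts over gene lists below lend no support. They describe the lists and account for every member found under its list symbol, and those over *sox3* cells include the otic-marker cells. Without those cells, among the genes that had entered, 11 crest specifiers, 6 arch crest genes and 5 signal genes were higher. Lower were then 17 signal genes, 7 Hox and segment genes, 4 matrix genes and 1 epidermis gene. Outside the otic and placode list, the other list counts stayed the same.

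The arch crest genes *dlx2a* and *ednrab* held the highest ratios of the leading genes. *ednrab*, a receptor for the endothelin signal that patterns the arches, had 572 CPM (550 to 594) in neural crest cells and 5.29 CPM (4.22 to 6.54) in *sox3* cells, a ratio of 108 (87.2 to 136). It had a median of 6 and a highest value of 24 UMIs per cell, and 366 of the 393 cells held it. *dlx2a*, a homeobox gene of arch and forebrain, had 330 CPM (314 to 347) in neural crest cells and 1.43 CPM (0.907 to 2.15) in *sox3* cells, a ratio of 231 (153 to 365), the highest of the 20 leading genes. Its values were more uneven than those of *ednrab*, with a median of 3 and a highest value of 22 UMIs and 294 cells with a UMI. *pdgfra*, the receptor for platelet-derived growth factor that steers cranial crest, had 179 CPM and 5.29 CPM, a ratio of 33.9 (27.1 to 42.9). *mef2ca*, a MADS-box gene that acts below endothelin in the arches, had 62.4 CPM in neural crest cells and 1.80 CPM in *sox3* cells, and *fli1a*, an ETS factor of crest and vessels, 24.8 CPM and 0.622 CPM. The gene listed as *fam212aa*, an older symbol of *inka1a*, whose frog relative is an AP-2 target in crest, had 133 CPM in neural crest cells and 1.31 CPM in *sox3* cells (ratio 102, 66.1 to 166).

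Some genes that act later in the arches, such as *barx1*, *hand2* and *dlx5a*, were close to the limit of detection at this depth. The lists were matched by symbol, so *inka1a*, listed as *fam212aa*, is outside the counts that follow. Of 31 arch crest genes in the table, 7 were higher, 3 lower and 2 in between, and 19 had under 10 CPM in both groups. Their median log2 ratio over the 12 that entered was 1.27, against 0.09 over all 6338 genes. Among those under 10 CPM, *barx1* was at 0 UMIs in neural crest cells, against 1.31 CPM in *sox3* cells. The ventral arch gene *hand2* had 1.72 CPM in neural crest cells and 2.18 CPM in *sox3* cells, and *dlx5a* had 1.94 CPM and 1.74 CPM. *dlx1a*, the neighbour and paralogue of *dlx2a*, had 6 UMIs in all neural crest cells. The 3 lower genes were the nuclear receptors *nr2f1a* (17.7 CPM, against 81.6) and *nr2f2* (67.8 CPM, against 171) and the homeobox gene *meis2b* (53.0 CPM, against 122), while *nr2f5* was higher, at 394 CPM in neural crest cells and 183 CPM in *sox3* cells.

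**Figure D2:**
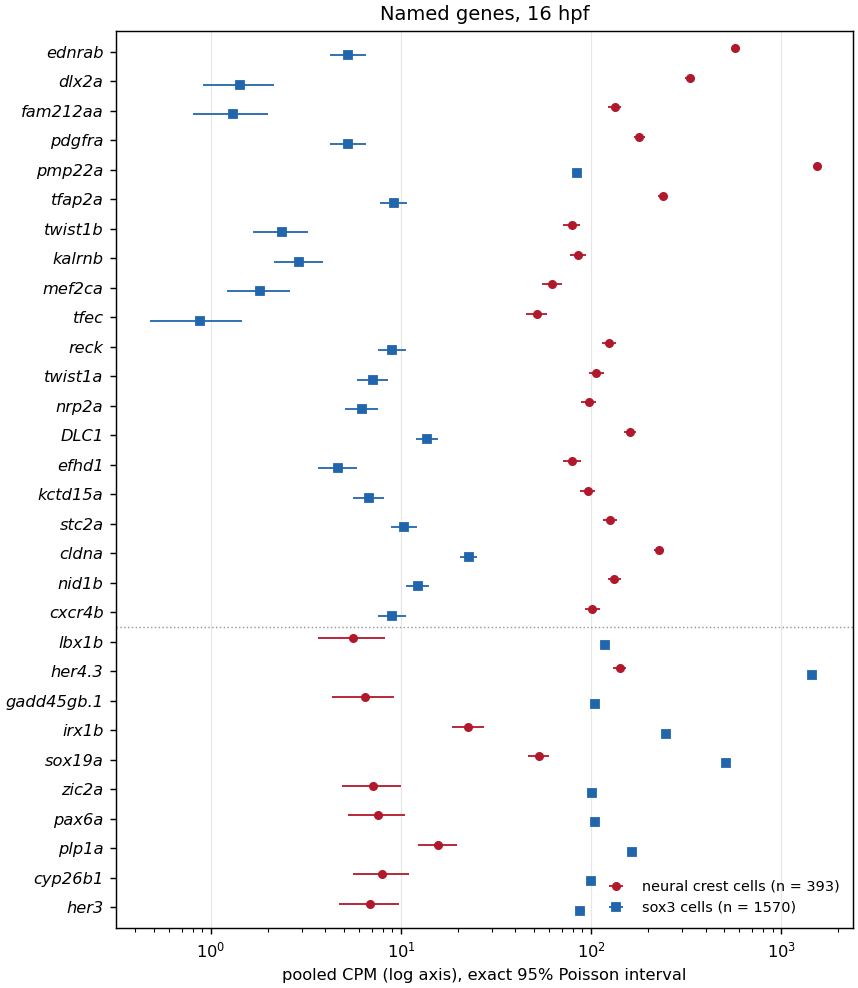
Pooled CPM (log axis) of the 20 genes with the largest and, below the dotted line, the 10 with the smallest ratio of CPM with 5 added, in neural crest cells (red circles, n = 393) and *sox3* cells (blue squares, n = 1570) of 16 hpf, with exact 95% Poisson intervals. The intervals cover counting error only and overlap for none of the 30 genes, which lends no support since the genes were picked by their ratios in these cells. *cldna* and *stc2a* rest mainly on the 15 otic-marker cells.

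The crest specifiers did not differ in 1 direction. Of 29 in the table, 10 were higher, 8 lower and 5 in between, with 6 under 10 CPM in both groups, and the median log2 ratio was 0.75. *tfap2a* had 238 CPM (224 to 252) in neural crest cells and 9.14 CPM (7.72 to 10.7) in *sox3* cells, a ratio of 26.0 (21.9 to 31.1). *twist1b* had 79.2 CPM and 2.36 CPM, and *twist1a* 107 CPM and 7.09 CPM. Both encode bHLH factors of migrating crest and head mesenchyme. Of the Snail genes, *snai1b* had 11.8 CPM in neural crest cells and 0.560 CPM in *sox3* cells, and *snai2* 17.2 CPM and 4.97 CPM. Both were higher but scarce, with at most 2 UMIs of *snai1b* in any cell. *msx2b*, a homeobox gene of the neural plate border, had 34.2 CPM in neural crest cells and 2.92 CPM in *sox3* cells (ratio 11.7, 8.41 to 16.6). Its relative *msx1b* was abundant in both, at 571 and 297 CPM, and fell just short of the threshold. *prdm1a*, a zinc-finger gene of early crest, had 87.6 CPM in neural crest cells, a ratio of 5.75 over *sox3* cells, *id2a* 731 and 249 CPM, and the Myc family gene *mych* 450 and 144 CPM.

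The 8 lower specifiers were *pax3a*, *pax7a*, *pax7b*, *zic2a*, *zic2b*, *zic5*, *tfap2c* and *myca*. *pax3a* had 24.8 CPM in neural crest cells and 101 CPM in *sox3* cells, *pax7a* 0.646 and 13.0 CPM, and *pax7b* 15.9 and 51.4 CPM. The zinc-finger gene *zic2a* had 7.10 CPM in neural crest cells and 101 CPM in *sox3* cells, a ratio of 0.0704 (0.0483 to 0.0993). *zic5* had 3.44 and 41.0 CPM. *kctd15a*, a BTB-domain gene whose product curbs AP-2 activity in zebrafish crest formation, was on the other side, with 95.8 CPM in neural crest cells and 6.78 CPM in *sox3* cells.

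Genes of cell adhesion and migration were split in the same way. Of 37 in the table, 8 were higher, 4 lower and 7 in between, and 18 had under 10 CPM in both groups, with a median log2 ratio of 0.77. *nrp2a*, a neuropilin receptor for semaphorins, had 96.9 CPM in neural crest cells and 6.22 CPM in *sox3* cells, a ratio of 15.6 (12.5 to 19.5). The chemokine receptor gene *cxcr4b* had 101 CPM and 9.02 CPM. The cadherin genes differed in both directions. *cdh6* had 164 CPM in neural crest cells and 41.5 CPM in *sox3* cells, and *cdh11*, a cadherin of mesenchyme, 44.6 and 13.4 CPM. *cdh2*, the N-cadherin of the neural tube, had 68.5 CPM in neural crest cells and 209 CPM in *sox3* cells (ratio 0.327, 0.291 to 0.367). The integrin gene *itga5* was higher, at 21.5 CPM against 4.23 CPM, and the Eph receptor genes *epha4a* (28.4 CPM, against 86.1) and *epha2a* (16.6 CPM, against 98.1) were lower. The Zeb repressors *zeb1b* and *zeb2a*, which act against E-cadherin, lay in between, with ratios of 0.836 and 1.16.

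Genes of the matrix and its turnover were also among the leading higher genes. *reck*, a membrane-bound inhibitor of metalloproteinases, had 125 CPM in neural crest cells and 9.02 CPM in *sox3* cells. *nid1b*, a nidogen of basement membranes, had 133 CPM in neural crest cells and 12.2 CPM in *sox3* cells. Both genes were higher in mesoderm-like marker cells than in neural crest cells, at 327 CPM of *reck* and 219 CPM of *nid1b*. Most matrix genes differed less. Of 25 matrix genes in the table, 3 were higher (*fn1a*, *lamb1a* and *hapln1b*), 1 was lower (*hapln1a*, 13.8 CPM against 108) and 7 lay in between, among them *col2a1a* (52.7 CPM, against 103) and *col5a1* (17.2 CPM, against 16.2), while 14 had under 10 CPM in both groups, and the median log2 ratio was 0.09. *pmp22a*, a peripheral myelin protein gene, had 1546 CPM in neural crest cells and 83.8 CPM in *sox3* cells, and a median of 16 UMIs per cell. *efhd1*, which encodes a calcium-binding protein of mitochondria, had 79.4 and 4.66 CPM.

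*cldna* and *stc2a*, which encode a claudin and a stanniocalcin, are on the list of leading genes because of a few cells. *cldna* had 227 CPM in neural crest cells and 22.8 CPM in *sox3* cells, but without the 15 otic-marker cells 19.1 CPM, a ratio of 0.839. *stc2a* had 126 and 10.4 CPM, a ratio of 12.1 that was 4.63 without the otic-marker cells. The ratios of the other 18 leading genes were between 10.7 and 240 without those cells.

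Among pigment lineage genes only *tfec* and 2 Sox genes were called. Of 24 in the table, 3 were higher, 0 lower and 3 in between, and 18 had under 10 CPM in both groups, 10 of them with 0 UMIs in neural crest cells. The median log2 ratio was 1.57 over the 6 that entered. *tfec*, a bHLH gene of the MiT family that is expressed in early pigment precursors of zebrafish and needed for silver iridophores, had 51.9 CPM (45.5 to 58.9) in neural crest cells and 0.870 CPM (0.476 to 1.46) in *sox3* cells, a ratio of 59.6 (34.8 to 111). It was held by 63 of the 393 cells, with up to 22 UMIs. Its relative *mitfa*, the master gene of black melanophores, had 1 UMI in neural crest cells. The melanin enzyme genes *dct* and *tyr*, the receptor genes *kita*, *ltk* and *csf1ra* and the yellow-pigment gene *xdh* had 0 UMIs (floor 0.646 CPM). *sox5*, which encodes a partner of Sox10, had 135 CPM in neural crest cells and 23.3 CPM in *sox3* cells, and *sox6* 60.7 and 7.65 CPM.

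No glial or sensory gene was called higher. Of 24 in the table, 0 were higher and 9 were lower, and 15 had under 10 CPM in both groups, with a median log2 ratio of -2.66. *erbb3b*, the neuregulin receptor gene of crest-derived glia, had 15 UMIs in 15 neural crest cells (3.23 CPM) and none in *sox3* cells. With the *sox3* cells set to the floor of 3 UMIs the ratio was 17.3. The gene was under 10 CPM in both groups and was not called. The glial and sensory list also holds genes of the hindbrain itself. Those were lower, such as the r3 and r5 gene *egr2b* (45.2 CPM, against 287), the proneural gene *neurog1* (16.6 CPM, against 135) and the hindbrain motor neuron gene *phox2bb* (ratio 0.0431).

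Receptors and targets of signals were mostly at like levels or lower. Of 67 in the table, 6 were higher, 15 lower and 23 in between, and 23 had under 10 CPM in both groups, with a median log2 ratio of -0.38. Higher were the Wnt effector *lef1* (42.8 CPM, against 9.58), the Wnt receptor *ror2* (55.1 CPM, against 12.6) and *notch2* (19.6 CPM, against 4.85). The BMP pseudoreceptor genes *bambia* and *bambib* and the FGF antagonist *spry4* made up the 6, with ratios between 2.01 and 2.63. *id1*, a target of BMP signalling, had 2643 CPM in neural crest cells and 5934 CPM in *sox3* cells. The Notch ligand genes *dla* (66.7 CPM, against 345), *dlb* and *dld* were lower, and so were 3 genes of retinoic acid handling. These were *cyp26b1* (7.97 CPM, against 99.7), *cyp26c1* (16.8 CPM, against 123) and *crabp2a* (28.0 CPM, against 174). FGF targets were among the genes in between, with ratios of 0.889 for *dusp6* and 1.12 for *etv4*. Shh reception was represented by *smo*, with 66.5 CPM in neural crest cells and 74.4 CPM in *sox3* cells.

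Genes of the neural progenitor list were lower throughout or in between, and none was higher. Besides *sox3*, 36 were in the table, of which 26 were lower, 6 lay in between and 4 had under 10 CPM in both groups. Their median log2 ratio was -2.22. *sox19a*, a SoxB1 gene like *sox3*, had 53.0 CPM in neural crest cells and 514 CPM in *sox3* cells, a ratio of 0.103 (0.0904 to 0.117). The Iroquois gene *irx1b* had 22.6 and 247 CPM, and the paired-box gene *pax6a* 7.53 and 104 CPM. *her4.3*, a Notch target, had 141 CPM in neural crest cells and 1449 CPM in *sox3* cells. Reads of the *her4* copies, which are nearly identical, may have been split among them, so the value of *her4.3* alone is uncertain, and *her4.1* (1555 CPM, against 2927) lay in between. *plp1a*, a proteolipid gene, had 15.7 CPM in neural crest cells and 164 CPM in *sox3* cells. The other named lower genes were *lbx1b* and *zic2a*, *gadd45gb.1* and *her3*, and *cyp26b1*, with ratios between 0.0474 and 0.0799.

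The 45 neural crest cells with 5 or more *sox3* UMIs touched these lower values. The same *sox3* cut-off chose the comparison cells, so smaller ratios without these 45 cells lend no support. Without them 7.25% of 6359 genes were higher and 7.78% lower, and the 10 leading lower genes had ratios of 0.0258 to 0.0597. Without them, the otic-marker cells and the *myog* and *spi1b* cells, 334 cells remained, and the 10 leading lower genes had ratios of 0.0269 to 0.0598. In the same 334 cells, 441 of 6341 genes (6.95%) were higher and 529 (8.34%) lower, and 19 of the 20 leading higher genes kept a ratio of at least 2, with *cldna* the exception.

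Mitosis genes differed by under 2-fold, and DNA replication genes were lower or in between. Of 24 mitosis genes 21 entered, and all of these lay in between, with a median log2 ratio of -0.38. Of 20 DNA replication genes 19 entered, of which 3 were lower and 16 in between, with a median of -0.63, against 0.09 over all genes. The summed level of the replication list was 3150 CPM in neural crest cells and 5287 CPM in *sox3* cells, and that of the mitosis list 1869 and 2356 CPM. Sums pooled over cells do not separate fewer cells in a phase from less RNA per cell, and this was not tested in single cells.

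**Figure D3:**
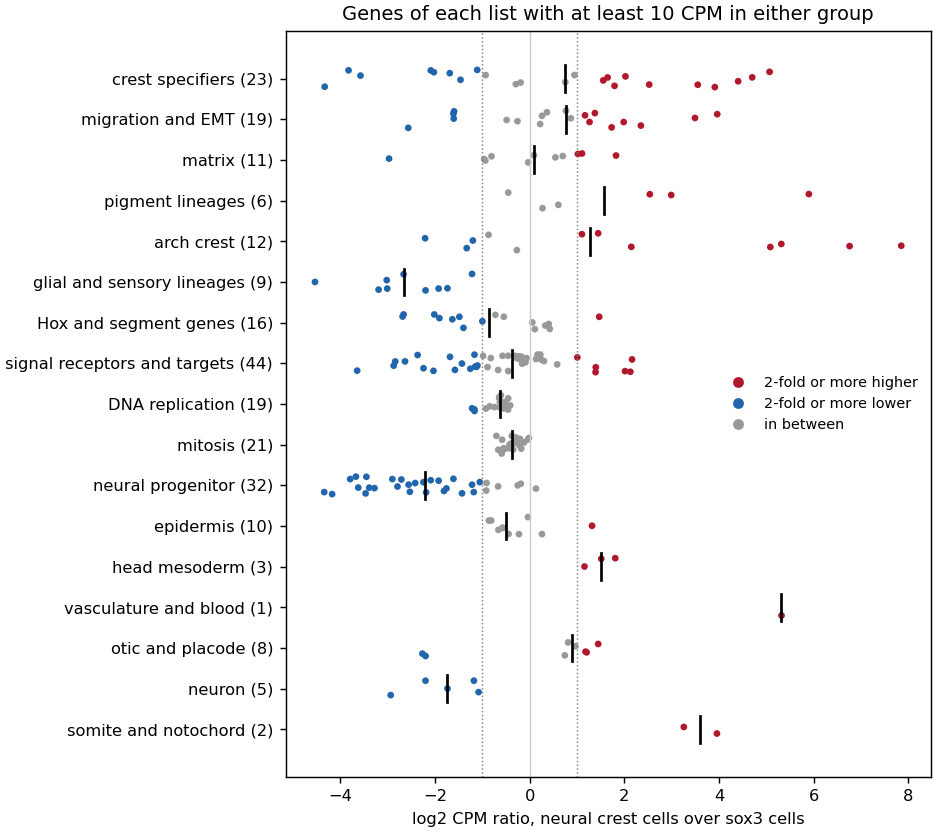
Log2 CPM ratio of neural crest cells over *sox3* cells (x axis) for each gene with at least 10 CPM in either group, by gene list (number of genes in brackets), without the 3 rule genes and *sox3*. Black bars are medians and dotted lines mark a 2-fold difference. The 21 mitosis genes lie between the dotted lines, and 26 of the 32 neural progenitor genes lie left of them.

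Markers of other tissues were measured in the same cells. The 17 epidermis genes summed to 612 CPM in neural crest cells and 581 CPM in *sox3* cells, against 43717 CPM in the 107 cells with 10 or more UMIs of the keratin genes *krt4*, *krt5* and *krt17* (epidermis-like marker cells), and the stem cell gene *tp63* had 9 UMIs. Of these 17 genes *krt8*, a keratin of simple epithelia, was the 1 called higher, at 299 CPM in neural crest cells and 120 CPM in *sox3* cells. The 18 head mesoderm genes summed to 82.9 CPM in neural crest cells and 45.8 CPM in *sox3* cells. For scale, they summed to 1707 CPM in the 254 mesoderm-like marker cells. These had 3 or more UMIs of *foxc1a*, *foxc1b* and *tbx1* and under 3 of the crest genes. Both sets of marker cells were chosen by genes of their own tissue, so their high sums were fixed by that choice. The 3 head mesoderm genes called higher in neural crest cells were *col9a2*, *col9a3* and *meox1*. The 14 vessel and blood genes summed to 42.2 CPM, against 20.7 CPM, and *fli1a*, which crest also expresses, made up most of it. The vessel markers *sox7* and *kdrl* had 5 UMIs each in neural crest cells, and *gata1a*, *hbae3* and *hbbe1.1* had 0.

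The otic and placode list was the 1 in which a few cells set the sum. Its 15 genes summed to 174 CPM in neural crest cells and 115 CPM in *sox3* cells, and to 80.6 CPM in neural crest cells without the otic-marker cells. With those cells 3 of its genes were higher, and without them 0. The list summed to 815 CPM in epidermis-like and 492 CPM in mesoderm-like marker cells. Neither otic-marker cells nor *sox3* cells were taken out of these marker groups, so each may hold more than 1 tissue. The neuron list summed to 85.5 CPM in neural crest cells and 269 CPM in *sox3* cells, and all 5 of its genes that entered were lower. The muscle genes *myog* and *actc1b* were higher, at 17.2 CPM and 24.1 CPM against 1.80 CPM and 1.55 CPM. The 1 muscle-marker cell held all 80 UMIs of *myog*, and without it, the *spi1b* cell, the otic-marker cells and the *sox3*-positive cells the ratio of *actc1b* was 1.71.

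The shares of cells with a UMI were compared after 2000 UMIs had been drawn from every cell. *ednrab* was then seen in 66.2% of neural crest cells (61.2 to 70.8), against 1.02% of *sox3* cells (0.584 to 1.65). Epidermis-like marker cells, which should lack it, showed it in 4.67%, and with all UMIs the 3 shares were 93.1%, 4.27% and 9.35%, at median depths of 11529, 10160 and 8266 UMIs. *dlx2a* was seen in 44.5% of neural crest cells, 0.318% of *sox3* cells and 2.80% of epidermis-like marker cells (74.8%, 1.46% and 9.35% with all UMIs). For *tfec* the shares were 7.38%, 0.191% and 0.935% (16.0%, 0.701% and 0.935% with all UMIs). Of the epidermis-like marker cells, 1 was also a neural crest cell, and it held all 8 *tfec* UMIs of that group. After the draw, progenitor genes had lower shares in neural crest cells and in the marker cells of other types than in *sox3* cells. *sox3* was seen in 24.4% of neural crest cells, 37.4% of epidermis-like and 18.1% of mesoderm-like marker cells, and *sox19a* in 6.36%, 12.1% and 11.0%. *her4.3* was seen in 18.8% of neural crest cells, 15.0% of epidermis-like and 11.0% of mesoderm-like marker cells. In *sox3* cells, which were chosen by *sox3*, the draw left *sox19a* in 61.5% and *her4.3* in 80.2%. With all UMIs neural crest cells showed *sox3* in 66.7%, *sox19a* in 29.3% and *her4.3* in 51.1%. The pooled level of *sox19a* in neural crest cells was 25.9 CPM without the 45 *sox3*-positive cells, against 53.0 CPM with them, and that of *her4.3* 86.5 CPM, against 141 CPM. *krt4* was seen in 15.5% of neural crest cells, 18.0% of *sox3* cells and 14.2% of mesoderm-like marker cells, a like low share in all 3.

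**Figure D4:**
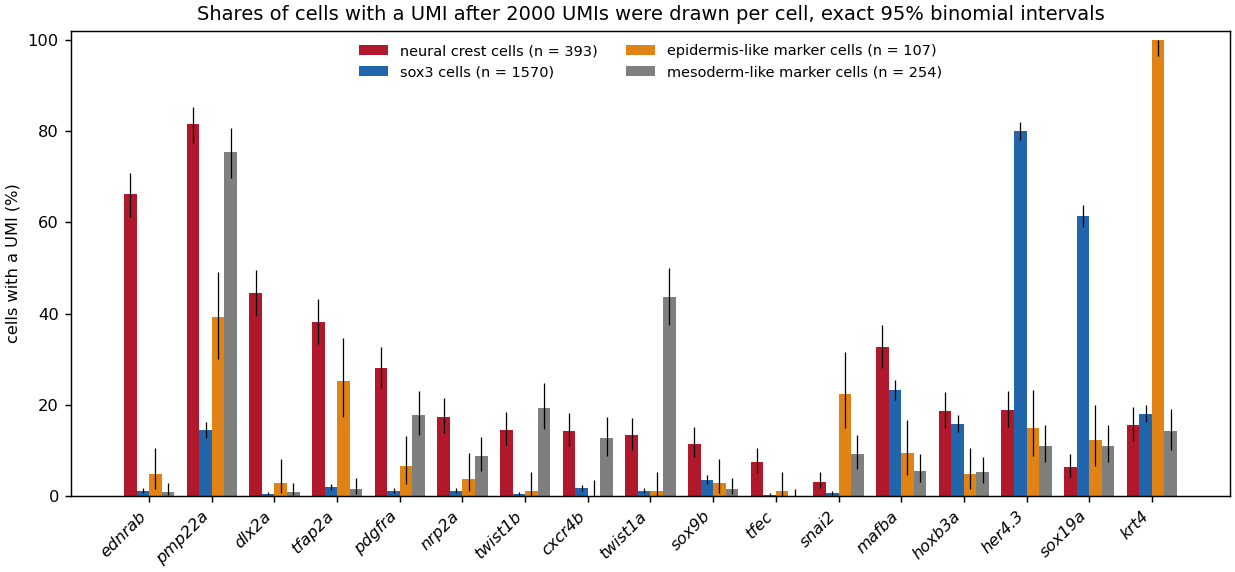
Share of cells with a UMI of each gene (%) after 2000 UMIs were drawn from each cell, in neural crest, *sox3*, epidermis-like and mesoderm-like marker cells of 16 hpf, with exact 95% binomial intervals. Of the epidermis-like marker cells, 1 is also a neural crest cell. *ednrab* and *dlx2a* stand at 66.2% and 44.5% in neural crest cells and under 5% in the other 3 groups. *pmp22a*, *twist1a*, *twist1b*, *pdgfra* and *cxcr4b* are among the genes also seen in mesoderm-like marker cells.

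Many of the genes higher than in *sox3* cells were not particular to the crest among the tissues of the dissection. Of the 404 higher genes, 102 (25.2%) were also at least 2-fold higher than in mesoderm-like and in 106 epidermis-like marker cells, after 1 epidermis-like cell that was also a neural crest cell was left out. The otic-marker cells were included among the neural crest cells here, and this count was not made without them. Over all genes entered, 4.01% were higher and 11.1% lower than in mesoderm-like marker cells, and 13.1% higher and 22.9% lower than in epidermis-like marker cells. Of the 20 leading genes, 9 were higher than in all 3 groups. They were *ednrab*, *dlx2a* and *fam212aa*, *mef2ca*, *tfec* and *nrp2a*, and *efhd1*, *stc2a* and *cldna*, of which the last 2 rest mainly on otic-marker cells. *twist1a* was highest in mesoderm-like marker cells, with 107 CPM in neural crest cells and 374 CPM in mesoderm-like marker cells (ratio 0.285), and *reck* had 125 and 327 CPM. *pmp22a* had 1546 CPM in neural crest cells and 1128 CPM in mesoderm-like marker cells, *pdgfra* 179 and 97.2 CPM, and *cxcr4b* 101 and 89.3 CPM. *tfap2a* and *kctd15a* were shared with the epidermis instead, at 238 CPM and 95.8 CPM in neural crest cells and 171 CPM and 69.8 CPM in epidermis-like marker cells. *snai2* was higher in epidermis-like marker cells, where 22.4% of cells held it after the draw, against 3.05% of neural crest cells.

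Hox genes and segment regulators were lower in the neural crest cells or near their level in *sox3* cells, and 1 was higher. Of 36 Hox and segment genes in the table, 1 was higher, 8 were lower and 7 lay in between, with 20 under 10 CPM in both groups, and the median log2 ratio was -0.86. *hoxa2b*, needed for the second arch, had 56.4 CPM (49.8 to 63.7) in neural crest cells and 82.4 CPM (78.1 to 87.0) in *sox3* cells, and *hoxb2a* 48.9 and 36.4 CPM. *hoxa3a* had 88.5 CPM in neural crest cells and 85.1 CPM in *sox3* cells (ratio 1.04, 0.929 to 1.16), and *hoxb3a* 121 and 112 CPM (ratio 1.08, 0.979 to 1.19). *mafba*, the Maf gene of rhombomeres 5 and 6, had 363 and 275 CPM. Lower in the crest were *hoxb1a* (3.44 CPM, against 13.9), *hoxd3a* (3.44 CPM, against 10.7), *hoxd4a* (11.8 CPM, against 76.2) and *egr2b*. The cofactor gene *meis3* was the higher one, with 87.4 CPM in neural crest cells and 31.6 CPM in *sox3* cells. Posterior Hox genes were at or near 0 in both groups, and *hoxc6a*, *hoxb8b*, *hoxc8a* and *hoxa9a* had no UMI in either.

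The Hox genes were held by partly different cells. Of the 378 neural crest cells without the otic-marker cells, 161 (42.6%) held a UMI of *hoxa3a* or *hoxb3a*, and 196 (51.9%) held *hoxa2b* or *hoxb2a*. Of these 196 cells, 104 also held *hoxa3a*, *hoxb3a* or *mafba*, and 92 (24.3% of the 378) held none of those 3. A further 70 (18.5%) held none of the 5 genes. The 142 cells with 3 or more UMIs of *mafba* were set against the 182 cells with 0, and the otic-marker cells were left out since they held 1 UMI of *dlx2a* and 2 of *ednrab* in all. Both sets came from 1 library and were chosen by a count, so the differences are descriptions.

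The *mafba* cells had the group 3 code. They had 298 CPM of *hoxb3a*, against 7.34 CPM in cells with 0 UMIs of *mafba* (ratio 40.6, 24.4 to 73.0), and 216 CPM of *hoxa3a*, against 7.34 CPM. Of them 131 of 142 (92.3%) held a UMI of either gene, against 20 of 182 (11.0%). *hoxb2a* went the other way, with 14.6 CPM in *mafba* cells and 80.2 CPM in the cells without it, while *hoxa2b* was alike, at 64.9 and 56.8 CPM. Genes of arch and crest differed as well. *ogn*, a small proteoglycan gene, had 110 CPM in *mafba* cells and 2.45 CPM in the others (ratio 44.9, 18.9 to 140), *prdm1a* had 176 and 28.9 CPM, and *gas6*, which encodes a ligand of TAM receptors, 106 and 17.6 CPM. *crestin*, a gene of the rule, was at 127 CPM in *mafba* cells and 17.1 CPM in the others, and 85 of 142 (59.9%) against 14 of 182 (7.69%) held it. *foxd3* had 898 and 617 CPM, and *sox10* 373 and 535 CPM.

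Other genes were higher in the *mafba*-negative cells but not absent from the *mafba* cells. *cxcr4b* had 11.8 CPM in *mafba* cells and 170 CPM in the cells without it (ratio 0.0692, 0.0423 to 0.108), and 14 of 142 (9.86%) against 93 of 182 (51.1%) held it. *mef2ca* had 20.7 CPM in *mafba* cells and 96.9 CPM in the others, the ephrin gene *efnb2a* 39.8 and 162 CPM, the zinc-finger gene *prdm12b* 76.1 and 295 CPM, and *twist1a* 56.0 and 147 CPM. The chemokine genes *cxcl14* (52.6 CPM, against 189) and *cxcl18b* (27.4 CPM, against 92.0) were lower in *mafba* cells too. By contrast *dlx2a* had 340 CPM in *mafba* cells and 343 CPM in the others (ratio 0.991, 0.888 to 1.11), *twist1b* 87.9 and 85.1 CPM, and *nr2f5* 390 and 407 CPM. Over all 6274 genes entered, 3.38% were higher and 2.71% lower, against 2.80% and 4.01% with the otic-marker cells. Of the *mafba* cells 25 had 5 or more *sox3* UMIs, against 10 of the cells without *mafba*, and without all such cells *hoxb3a* had 308 and 6.33 CPM and *cxcr4b* 14.2 and 179 CPM. The values of *sox3* (296 CPM, against 116) and *egr2b* (90.1 CPM, against 18.1) were then 124 and 44.7 CPM in *mafba* cells, against 69.2 and 13.2 CPM in the cells without *mafba*.

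**Figure D5:**
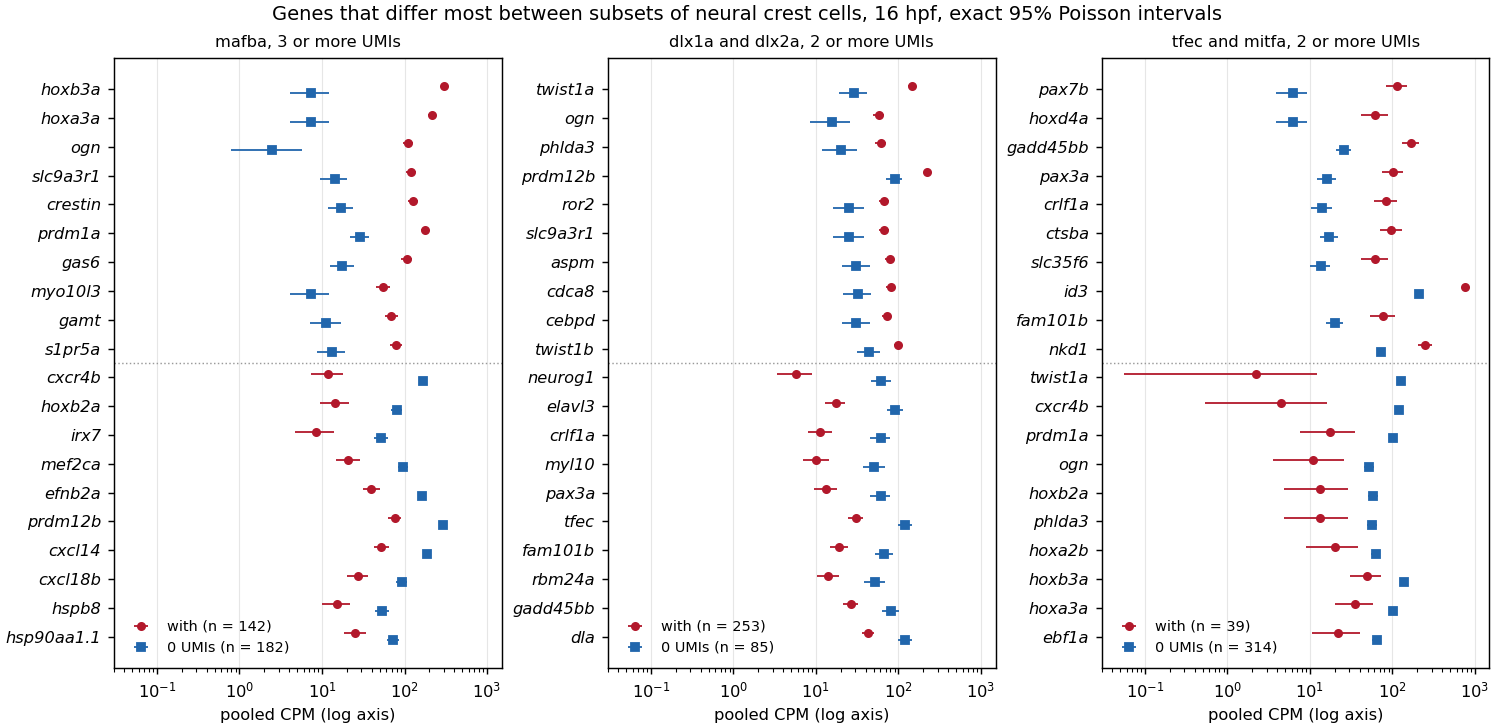
Pooled CPM (log axis, exact 95% Poisson intervals) of the 10 genes with the largest and, below the dotted line, the 10 with the smallest ratio between neural crest cells with the grouping gene (red circles) and with 0 UMIs of it (blue squares), without otic-marker cells. From left to right the grouping genes are *mafba* (142 against 182 cells), *dlx1a* and *dlx2a* (253 against 85) and *tfec* and *mitfa* (39 against 314).

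*dlx2a* divided the cells along another line. Of 378 cells 253 had 2 or more UMIs of *dlx2a* and *dlx1a* summed and 85 had 0. The *dlx2a* cells had 145 CPM of *twist1a*, against 28.8 CPM in cells with 0 (ratio 5.04, 3.39 to 7.79), 57.6 CPM of *ogn*, against 15.5 CPM, and 67.4 CPM of *ror2*, against 25.4 CPM. *twist1b* had 98.9 CPM in *dlx2a* cells and 44.2 CPM in the others, and the mitosis genes *aspm* (78.4 CPM, against 31.0) and *cdca8* (80.6 CPM, against 32.1) were also higher. These were single genes, and the whole mitosis list was not counted in these sets. The *dlx2a* cells were read more deeply, with a median of 12188 UMIs against 10022, and the bearing of depth on these values was not tested. Lower were *tfec* (30.2 CPM, against 122), *pax3a* (13.2 CPM, against 60.8) and *hoxd4a* (3.46 CPM, against 46.5). Some of the lower values came from few cells, since 62 of the 83 UMIs of *elavl3*, a neuronal gene, in *dlx2a*-negative cells lay in 1 cell. With the 15 otic-marker cells included, all but 1 of which had no *dlx2a* UMI, *cldna* (17.3 CPM, against 842) and *stm* (3.15 CPM, against 190) led the lower side instead. Over all genes entered without the otic-marker cells, 2.78% were higher and 4.75% lower, against 2.53% and 7.19% with them.

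The *tfec* cells were the smallest subset. In all, 39 of 378 cells (10.3%) had 2 or more UMIs of *tfec* and *mitfa* summed, and 314 had 0. They had 102 CPM of *pax3a*, against 16.1 CPM (ratio 6.29, 4.19 to 9.40), with 21 of the 39 cells holding it. They had 767 CPM of *id3*, against 212 CPM, and 1778 CPM of *id2a*, against 619 CPM. *hoxd4a* had 61.9 CPM in *tfec* cells and 6.19 CPM in cells without *tfec*, and the Wnt feedback gene *nkd1* 250 and 72.9 CPM. *pax7b*, a gene of yellow pigment cells, had 113 CPM in *tfec* cells and 6.19 CPM in the others, but its 51 UMIs lay in 5 cells, 32 of them in 1. The lysosomal protease gene *ctsba* had 97.2 and 17.2 CPM, and the homeobox gene *msx2b* 97.2 and 27.2 CPM. *pmela*, a melanosome matrix gene, and *erbb3b* had 7 UMIs each in *tfec* cells and 5 each in the cells without.

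Of 31 arch crest genes in the *tfec* cells, *dlx2a* was the 1 called lower, 10 lay in between, 0 were higher and 20 had under 10 CPM in both sets. Genes of other lists were lower. *twist1a* had 1 UMI in them (2.21 CPM), against 128 CPM in cells without *tfec* (ratio 0.0172, 0.000436 to 0.0965). *cxcr4b* had 2 UMIs (4.42 CPM), against 120 CPM, and *prdm1a* 17.7 CPM, against 101 CPM. *dlx2a* was not absent, with 157 CPM in *tfec* cells and 367 CPM in the others, and 12 of 39 *tfec* cells (30.8%, 17.0 to 47.6) had 2 or more UMIs of *dlx2a* and *dlx1a*, against 227 of 314 cells (72.3%, 67.0 to 77.2). The Hox genes *hoxb2a* (13.3 CPM, against 58.1) and *hoxa2b* (19.9 CPM, against 62.7) were lower, and *hoxa3a* or *hoxb3a* was held by 17 of 39 cells (43.6%), against 134 of 314 (42.7%). The share with a *crestin* UMI was 30.8% in *tfec* cells, against 28.3%. Over all genes entered, 6.09% were higher and 5.85% lower, against 5.81% and 6.48% with the otic-marker cells. Without the cells that had 5 or more *sox3* UMIs, 6 of the *tfec* cells and 35 of the cells without *tfec*, the values were 93.3 CPM of *pax3a*, against 12.0 CPM, and 2.75 CPM of *twist1a*, against 139 CPM.

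The same rule picked other cells at later stages. At 24 hpf it found 144 of 2568 cells (5.61%, 4.75 to 6.57), and at 44 hpf 106 of 3529 cells (interval 2.47 to 3.62%). Only 31.9% of the 24 hpf cells and 10.4% of the 44 hpf cells held both *foxd3* and *sox10*, against 88.5% at 16 hpf. These cells had a median of 13467 UMIs at 24 hpf and 2992 at 44 hpf, against 11529 at 16 hpf. The rule and these shares count raw UMIs, so the 44 hpf values also carry the lower depth. The bearing of depth on the shares between stages was not tested. No UMI of *foxd3* was found in 58.3% of the 24 hpf cells, against 6.11% at 16 hpf. Of the 144 cells of 24 hpf, 35 had 5 or more *sox3* UMIs, against 45 of 393 at 16 hpf. Otic-marker cells were 60 of the 144 cells of 24 hpf (41.7%), against 15 of 393 at 16 hpf, and 64 of the 106 cells of 44 hpf (60.4%) had 2 or more UMIs of the neuronal genes *elavl3* and *elavl4*, against 12 of 393. Stage, growth temperature and library cannot be told apart, and the 3 comparisons do not share cells.

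Without otic-marker cells 84 cells of 24 hpf remained. Over *sox3* cells of their own stage, 18 of the 20 leading higher genes of 16 hpf were at least 2-fold higher in them and all 10 leading lower genes at least 2-fold lower, where 11.7% and 9.37% of 6416 genes were called higher and lower. The 18 included *cldna*, at 272 CPM and a ratio of 23.6, which at 16 hpf had a ratio of 0.839 without otic-marker cells. *ednrab* had 406 CPM in these 84 cells and 2.66 CPM in *sox3* cells of 24 hpf, *dlx2a* 252 and 4.06 CPM, and *mef2ca* 77.2 and 2.29 CPM. *twist1a* had 177 CPM, a ratio of 11.7. The 2 exceptions were *cxcr4b*, with 38.6 CPM in these 84 cells and 34.6 CPM in *sox3* cells of 24 hpf, and *tfec*, which was under 10 CPM in both. *tfec* had 0.965 CPM in the 84 cells and no UMI in *sox3* cells of 24 hpf. The crest specifier *mych* had 93.6 and 86.7 CPM at 24 hpf without otic-marker cells, and 467 and 144 CPM at 16 hpf without them. With the otic-marker cells included, 17 of the 20 higher and all 10 lower genes were called at 24 hpf, where 11.9% and 7.76% of 6508 genes were called. At 44 hpf 10 of the 20 higher genes were called higher, 3 lay in between and 7 had under 10 CPM in both groups, and all 10 lower genes were called lower, where 24.9% and 9.55% of 6671 genes were called. Otic-marker cells, 13 of the 106 cells of 44 hpf (12.3%), were included, and no count was made without them. The 10 higher genes included *cldna*, at 251 CPM and a ratio of 72.3.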

How the data were processed

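Single cell libraries of 16, 24 and 44 hpf hindbrain dissections were made with the Chromium Single Cell 3′ v2 kit. The deposited values are counts, UMIs per gene and cell, which the authors made with Cell Ranger (version not given in the sources used here) on Ensembl release 89 models of GRCz10. The cells were those called by Cell Ranger, and no further cells were removed. The 3 files hold the 9026 cells that the study states. Per library, totals were 28566809, 25733058 and 12351301 UMIs for 16, 24 and 44 hpf. Depth sets the intervals.

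UMIs were pooled per group as CPM, with exact Poisson intervals for CPM, exact conditional binomial intervals for ratios and Clopper-Pearson intervals for shares (95%), computed with scipy 1.17.1 and numpy 2.4.6, tables handled in pandas 2.3.3 and plots drawn in matplotlib 3.10.9, all under Python 3.11.15. Genes entered with at least 10 CPM in either group, and a group with 0 UMIs was set to 3. Named genes were the 20 largest and 10 smallest ratios of CPM plus 5, among genes with at least 50 CPM and a UMI in at least 10% of cells of the higher group, without rule genes, mitochondrial, ribosomal and haemoglobin genes and clone names. Other genes of the lists were named after their values were seen. The same ranking over 10 and 10 genes gave the subset genes. Members and lists were chosen with earlier results of these data known. Of 30 named genes 28 had their symbol and 1 an older symbol in the RefSeq table. A list of library paths was not used, and 16 list genes were not analysed in their lists here, among them *inka1a*, which is given as *fam212aa*. The code was tested on simulated data.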

Additional observations from a re-analysis of the deposited data

How the results depend on the processing

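The number of neural crest cells was 359 to 422 under the other rules and filters, and 177 when the rule was applied to 2000 UMIs drawn from each cell, since fewer UMIs reach it. The counts of higher and lower genes were 404 and 456. They were 1374 and 1222 with a minimum of 1 CPM and 104 and 170 with a minimum of 50 CPM, since the minimum sets how many genes enter. With all cells without rule genes as the comparison 256 were higher. Under the other 10 settings both counts stayed within 1.5 times. Cells with *tfec* or *mitfa* numbered 39 with 2 UMIs and 64 with 1 UMI. Of 330 ratios of named genes under 11 settings at 16 hpf, 247 lay within the counting interval, 80 moved outside it in the same direction and 3 changed direction, all of *cldna*. That gene had ratios of 0.824 with 2 of the 3 rule genes required, 0.839 without otic-marker cells and 0.839 without these, *sox3*-positive, *myog* and *spi1b* cells. At 24 hpf *cxcr4b* had a ratio of 0.984 with otic-marker cells included and 1.12 without. The settings without otic-marker, *myog* and *spi1b* cells, at 24 hpf without otic-marker cells, over epidermis-like and mesoderm-like cells and by *mafba* were chosen after seeing the data. No paired analysis was possible because each stage had 1 library, and no replicate could be left out. Promoter motifs were not run. Depth limits scarce genes, and for ratios a count of 0 over the neural crest cells was set to a floor of 0.646 CPM.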
